A study of Mus musculus with 2 samples.

Results

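The cohesin complex was followed in mouse foetal germ cells through the transcripts of 9 of its subunits. The 4 meiotic subunits were Rec8, Rad21l, Smc1b and Stag3. Rad21, Smc1a, Stag1 and Stag2 were taken as their mitotic counterparts, and Smc3 as the subunit that belongs to complexes of either kind. The members were the rows of the germ cell count table whose Ensembl identifiers carry these symbols, 9 of 42422 rows, and all 9 passed the filter on low counts together with 15252 genes in all. Germ cells came from E12.5 gonads of wild-type embryos of ASMU Swiss crossed with an Oct4(Pou5fl)-eGFP line on a 129svJT2 background. XX and XY germ cells were collected at 0 h. Others were collected after gonads had been cultured with the attached mesonephros for 24 h or 72 h in the vehicle DMSO, and XY gonads were also cultured for the same times with 500 nM of FGFRi (BGJ398, an inhibitor of FGF receptors) or 500 nM of MEKi (PD0325901, an inhibitor of the kinases MEK1 and MEK2). Each of the 10 groups had 4 libraries, each from the pooled gonads of several embryos. Inhibitors reached the whole gonad, somatic cells included, so a change in germ cells may be direct or indirect, and an XX gonad was cultured with DMSO only.

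Cohesin is a ring of 2 SMC proteins closed by a kleisin, to which a STAG protein binds, and it holds sister chromatids together after replication and folds chromosomes into loops. In meiosis germ cells build further rings with subunits that are largely confined to germ cells: the kleisins REC8 and RAD21L, the SMC protein SMC1B and the STAG protein STAG3. These rings form the core of the chromosome axis on which homologous chromosomes pair and recombine. Germ cells of the foetal ovary enter meiosis at about the ages sampled here, under the transcription factors STRA8 and MEIOSIN, while germ cells of the foetal testis stop dividing and do not enter meiosis until after birth.

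In GRCm39 (GENCODE annotation) Rec8 (ENSMUSG00000002324) lies at chr14:55855455-55862852 on the plus strand, Rad21l (ENSMUSG00000074704) at chr2:151487324-151510453 on the minus strand, Smc1b (ENSMUSG00000022432) at chr15:84948882-85016204 on the minus strand and Stag3 (ENSMUSG00000036928) at chr5:138278502-138310655 on the plus strand. Rad21 (ENSMUSG00000022314) shares chromosome 15 with Smc1b, Smc3 (ENSMUSG00000024974) lies on chromosome 19 and Stag1 (ENSMUSG00000037286) on chromosome 9, while Smc1a (ENSMUSG00000041133) and Stag2 (ENSMUSG00000025862) are X-linked. Start regions of the 4 meiotic genes are shown because these genes did not move as a block, and because the sequences differ plainly in composition. They were cut from the RefSeq promoter windows (250 bases before each gene's start, GRCm38.p6), which held 7 of the 9 members but not Rad21 and Stag2, and were placed in GRCm39 by exact match. For Rec8, Rad21l and Smc1b the stretch without an annotated exon is printed, and for Stag3 the 30 bases around its only motif match, which lie inside the annotated span of the gene. The Smc1b stretch is the 70 bases between the starts of Smc1b and of Ribc2 on the opposite strand. Each is written 5′ to 3′ on the gene's strand, and capitals mark CACGTG in Stag3 and TCTCGCGAGA in Smc1b.
Rec8, chr14:55855373-55855454: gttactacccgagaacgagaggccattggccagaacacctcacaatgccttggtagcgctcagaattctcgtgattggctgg
Rad21l, chr2:151510454-151510703: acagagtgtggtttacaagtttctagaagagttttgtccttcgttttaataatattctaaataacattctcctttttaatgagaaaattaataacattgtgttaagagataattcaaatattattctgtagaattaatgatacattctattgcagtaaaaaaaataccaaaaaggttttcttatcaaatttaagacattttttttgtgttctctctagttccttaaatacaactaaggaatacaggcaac
Smc1b, chr15:85016205-85016274: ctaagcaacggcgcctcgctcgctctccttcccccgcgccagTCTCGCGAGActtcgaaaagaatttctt
Stag3, chr5:138278589-138278618: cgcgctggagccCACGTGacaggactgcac

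Over the full 250-base windows, Rad21l was 25.6% G and C with 1 CpG, a G and C content that only 0.47% of 27025 genes reached or fell below. Rec8 was 56.0% G and C with 10 CpGs, Smc1b 58.0% with 25 and Stag3 62.8% with 26, against medians of 52.4% and 6 over all promoter windows. Motifs were searched on both strands. CNCCTCAG, the sequence recognised by STRA8 and MEIOSIN, was in none of the 7 members' windows and in 7.39% of all genes. GGCGGGAA, an E2F sequence, was also in none and in 2.13% of all, and AGGTCA, read by nuclear receptors, in none and in 15.8%. The E-box CACGTG was in Stag3 alone of the 7 and in 6.86% of all genes. The palindrome TCTCGCGAGA was searched only after the sequences had been read, and was in Smc1b alone of the 7 and in 0.448% of all genes. A missing match says only that these letters are not in this window.

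Total counts per library ranged from 1178953 to 5199153, with a median of 2135128.5. Levels are given as CPM, counts scaled to a total of 1000000 per library with TMM-adjusted library sizes. Each counted molecule was read near its 3′ end, so counts do not grow with transcript length. The 0 h libraries, the 24 h DMSO libraries and the 24 h MEKi libraries were sequenced in one pool, and the 24 h FGFRi and all 72 h libraries in another, so that pool and time cannot be told apart between 72 h and earlier groups. Sample indexes were used again in the second pool for 16 pairs of libraries. From the Y-linked counts in XX libraries, carry-over was estimated at 3.25% of a partner's counts. It was subtracted only from first-pool libraries, those of 0 h and 24 h DMSO, and carry-over into the 72 h libraries was not estimated. The effect of subtraction is given where it changed a call or moved a fold by over 1.5 times. Germ cell markers were detected in every group, with summed levels of Ddx4, Dazl, Pou5f1, Dppa3 and Mael between 2073 and 5438 CPM in the 40 libraries. The summed levels of 10 gonadal somatic markers were between 19.9 and 116 CPM. A change in level in sorted cells cannot tell less RNA per cell from fewer cells of a kind.

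**Figure D1:**
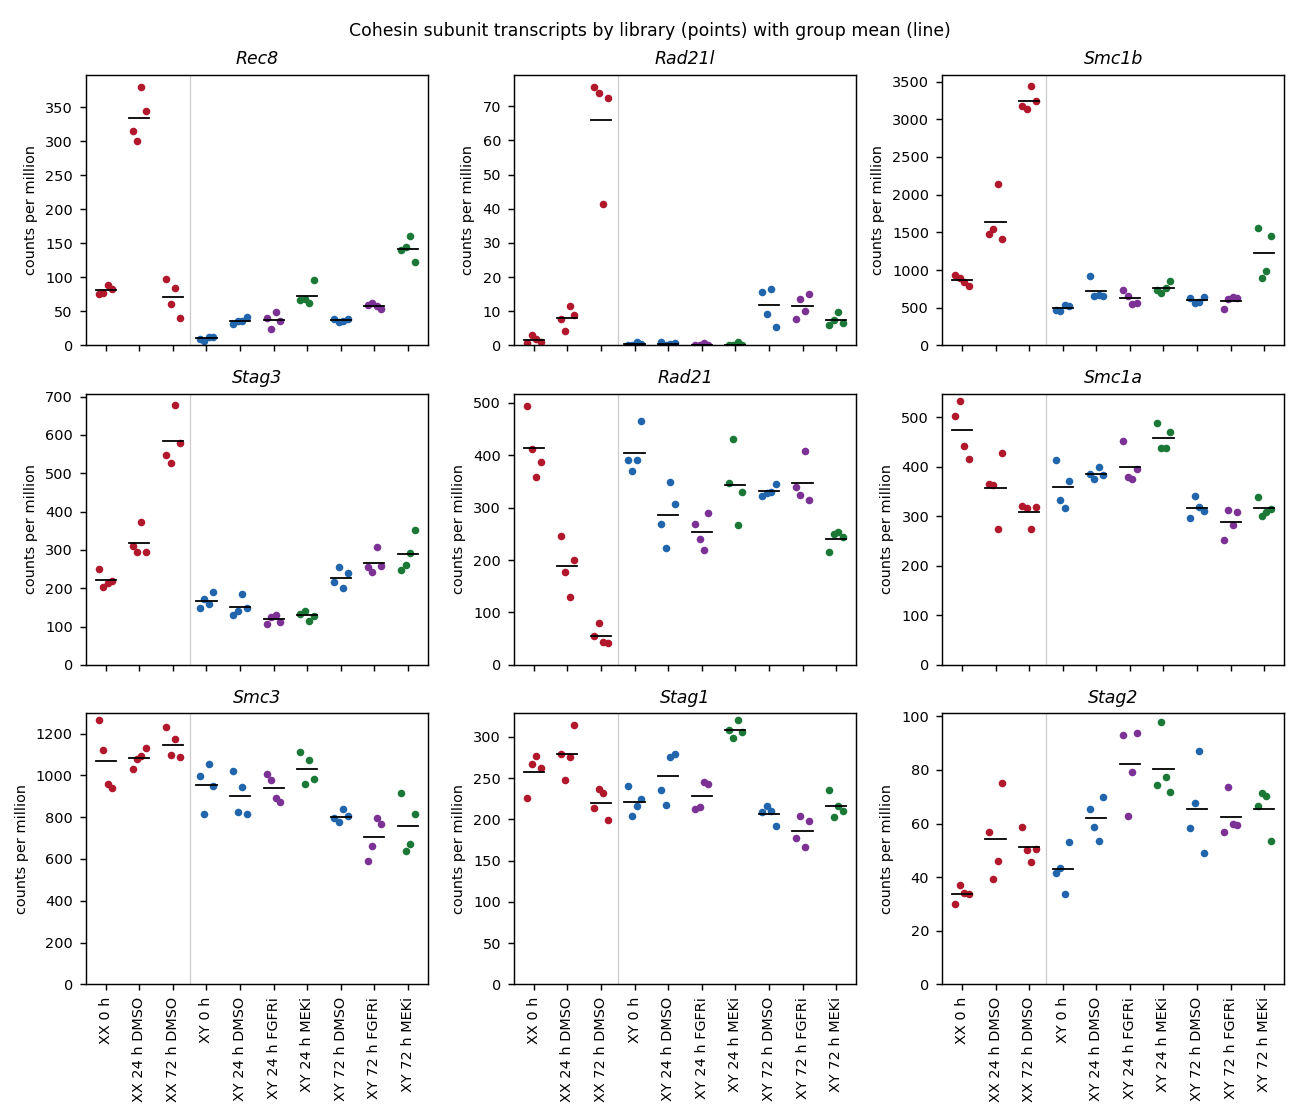
CPM (y axis, from 0) of the 9 cohesin subunits in each of 10 groups (x axis), with 1 point per library and a line at the mean of 4 libraries; red is XX, blue XY at 0 h or in DMSO, purple FGFRi and green MEKi. Rec8 peaked in XX cells at 24 h, Rad21l, Smc1b and Stag3 were highest in XX cells at 72 h, and Rad21 was lowest there.

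Rec8 encodes the kleisin that holds sister chromatids together until anaphase II. It was already split by sex at 0 h. The 4 XX libraries read 75.5, 77.6, 88.8 and 82.2 CPM and the 4 XY libraries 8.78, 7.004, 12.48 and 12.54 CPM. No XY library came near an XX library, and Rec8 was the only subunit of 9 called between the sexes at this time (log2 fold change, XY relative to XX, -3.16 ± 0.25, SE; FDR = 1.75e-11, limma treat against a 1.5-fold change), where 3% of all genes were called, 1.34% higher and 1.65% lower. The groups did not overlap for 4 subunits, against 21.4% of all genes. Smc1b was also lower in every XY library, at 499 ± 38.2 against 867 ± 64.0 CPM (mean ± SD, n = 4), but was not called (-0.78 ± 0.12, FDR = 0.631). The mean of Stag3 was 167 ± 17.1 CPM for XY and 221 ± 20.0 for XX libraries (FDR = 1). Rad21 did not separate the sexes, with means of 405 ± 42.2 for XY and 413 ± 58.7 for XX.

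In XX germ cells the Rec8 level rose and then fell. At 24 h in DMSO the 4 libraries read 315, 300, 379 and 345 CPM, all above the 0 h libraries (log2 fold change 2.00 ± 0.13, FDR = 1.43e-11). At 72 h they read 98.0, 60.9, 84.3 and 40.1 CPM, all below the 24 h libraries (-2.34 ± 0.15, FDR = 6.55e-14) and overlapping those of 0 h (-0.34 ± 0.16, FDR = 1). Replicates 4 and 8, the lowest at 72 h, each read less than any XX library at 0 h. Between 24 h and 0 h, 2 of the 9 subunits were called, 1 higher and 1 lower, where 2.32% of all genes were called higher and 0.911% lower (3.23% in all), and 6 did not overlap, against 27.7% of all genes. Between 72 h and 24 h 3 were called higher and 2 lower, where 10.3% and 11.9% of all genes were (22.2% in all), and 6 did not overlap, against 45.3% of all genes. The balance over all genes turned with DESeq2 size factors, from 46.5% to 55.7% of the calls being higher.

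Rad21l, the kleisin that acts early in prophase, followed a later course. In XX cells the counts at 0 h were 1, 8, 5 and 4 (0.699, 3.09, 1.94 and 1.11 CPM), and of these 18 counts 14 were removed when carry-over from shared indexes was subtracted. At 24 h the libraries read 7.78, 4.25, 11.4 and 8.78 CPM, above every 0 h library but not called in the fit (2.06 ± 0.50, FDR = 0.0668). The call at 24 h was made after that subtraction (4.08 ± 0.72, FDR = 0.00057), by DESeq2 (FDR = 0.0191), by edgeR (FDR = 0.00268), with only the compared groups in the fit (FDR = 0.0348) and without XX 24 h DMSO replicate 5 (2.30 ± 0.50, FDR = 0.0251). At 72 h the libraries read 75.5, 73.8, 41.5 and 72.5 CPM, all above the 24 h libraries (3.19 ± 0.30, FDR = 2.53e-10). Against 0 h the level at 72 h was 37.9 times as high, with an interval of 23.7 to 64.5 that covers counting error only (5.25 ± 0.44 in the fit, FDR = 1.02e-13). After subtraction of shared index counts the difference in the fit was 7.35 ± 0.66, against 4 remaining counts at 0 h. Rec8 had fallen over the same interval, so the kleisin whose level was highest among the 2 meiotic ones at 24 h was Rec8, at 335 ± 35.1 against 8.05 ± 2.96 CPM, while at 72 h their levels were 70.8 ± 25.6 and 65.8 ± 16.3 CPM.

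Rad21 encodes the kleisin of mitotic cohesin, and in XX cells its level fell at each step. The 0 h libraries read 494, 412, 358 and 387 CPM, the 24 h libraries 245, 178, 129 and 200 CPM and the 72 h libraries 55.7, 80.0, 44.2 and 41.4 CPM, with no overlap between times. The fall was called from 0 h to 24 h (-1.07 ± 0.13, FDR = 0.0128), from 24 h to 72 h (-1.80 ± 0.18, FDR = 1.22e-07) and from 0 h to 72 h (-2.86 ± 0.17, FDR = 1.36e-17). The call from 0 h to 24 h was lost without XX 24 h DMSO replicate 5 (-1.01 ± 0.15, FDR = 0.07) or replicate 6 (-0.97 ± 0.13, FDR = 0.0774). The summed level of the 3 kleisins was 496 ± 53.1 CPM at 0 h, 531 ± 38.1 at 24 h and 192 ± 35.7 at 72 h in XX cells. Smc3, the SMC partner in every ring, was at 1071 ± 152, 1084 ± 40.8 and 1147 ± 68.6 CPM in the same groups.

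**Figure D2:**
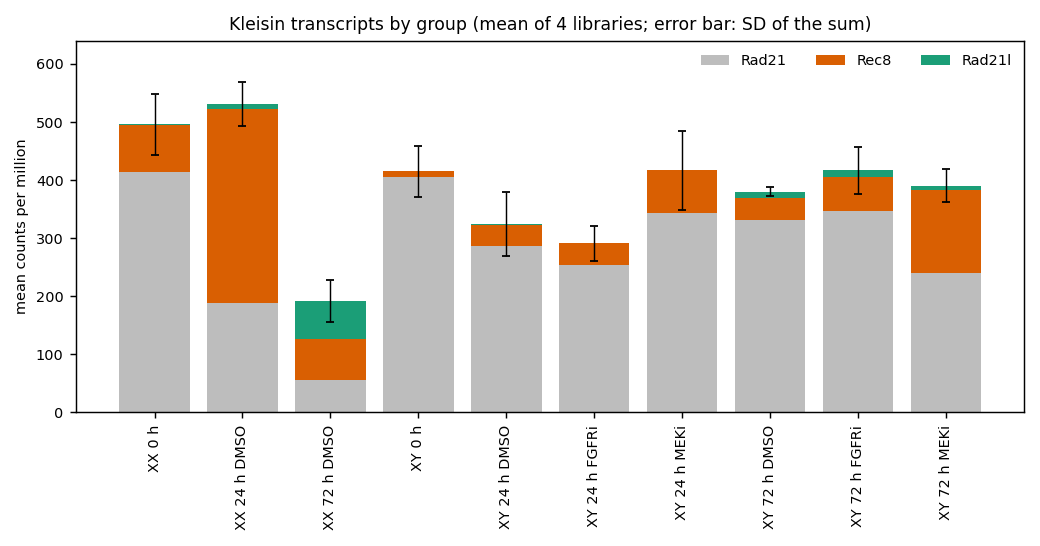
Mean CPM (y axis, from 0) of Rad21 (grey), Rec8 (orange) and Rad21l (green) stacked by group (x axis), with the SD of the summed level over 4 libraries as error bars. The XX 24 h bar is mostly Rec8, the XX 72 h bar is the lowest at 192 and holds all 3 kleisins, and the XY bars are mostly Rad21.

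The share of kleisin counts that came from Rec8 and Rad21l together was 16.9 ± 2.86% in XX cells at 0 h, 64.7 ± 7.62% at 24 h and 71.4 ± 5.87% at 72 h (SD, n = 4). At 72 h Rec8 gave 36.7 ± 11.3% and Rad21l 34.7 ± 9.34% of the kleisin counts. In XY cells the meiotic share was 2.53 ± 0.607% at 0 h, 11.6 ± 1.77% at 24 h and 12.8 ± 1.51% at 72 h in DMSO, so at each time every XY library was below every XX library. After subtraction of shared index counts the share was 66.9% in XX cells and 10.1% in XY cells at 24 h, and 165 of 1927 Rad21 counts of the XX 24 h libraries were removed. These shares are descriptions and were given no test.

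Smc1b and Stag3 were highest in XX cells at 72 h, and were called higher there than at 24 h and at 0 h, but not at 24 h against 0 h. Smc1b, the meiotic form of the SMC1 protein, was at 940, 894, 844 and 792 CPM at 0 h, at 1475, 1546, 2139 and 1415 CPM at 24 h and at 3180, 3132, 3444 and 3236 CPM at 72 h. The groups did not overlap, and the rise from 24 h to 72 h was called (1.04 ± 0.12, FDR = 0.000932), as was that from 0 h to 72 h (1.92 ± 0.11, FDR = 2.24e-15), while the rise from 0 h to 24 h was not (0.88 ± 0.12, FDR = 0.151). The last was called after subtraction of shared index counts (0.99 ± 0.12, FDR = 0.0285) and by edgeR (FDR = 0.0267). Stag3, the meiotic STAG subunit, was at 250, 203, 215 and 218 CPM at 0 h, at 310, 295, 373 and 295 CPM at 24 h and at 547, 528, 678 and 580 CPM at 72 h. It was not called from 0 h to 24 h (0.51 ± 0.10, FDR = 1), and was called from 24 h to 72 h (0.88 ± 0.10, FDR = 0.0145) and from 0 h to 72 h (1.39 ± 0.10, FDR = 3.61e-10). The former call was lost without XX 24 h DMSO replicate 5 (0.85, FDR = 0.0551) or replicate 9 (0.84, FDR = 0.0722). From 0 h to 72 h 4 of the 9 subunits were called, 3 higher and 1 lower, where 37.2% of all genes were called, and 6 did not overlap, against 55.6% of all genes. Summed over 10 genes, gonadal somatic markers were at 25.5 ± 4.51 CPM at 24 h and 99.7 ± 15.9 CPM at 72 h, with Amh at 0 counts at 72 h, and 3 endothelial markers together were at 91.5 ± 21.6 and 7.03 ± 2.00 CPM. Against 0 h and against 24 h alike, 4 of 8 gonadal somatic markers were called higher at 72 h and 1 of 2 endothelial ones lower. Of 5 germ cell markers 1 was called higher and 2 lower in each comparison. The part of these markers in these changes was not tested.

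Smc1b gave 64.7 ± 1.41% of the Smc1a and Smc1b counts in XX cells at 0 h, 81.6 ± 4.98% at 24 h and 91.3 ± 0.865% at 72 h. Stag3 gave 43.2 ± 4.29%, 48.9 ± 4.50% and 68.1 ± 2.84% of the STAG counts at these times. In XY cells at 0 h Smc1b already gave 58.2 ± 4.00% and Stag3 38.8 ± 2.89%. The difference between the sexes in these shares was not tested.

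**Figure D3:**
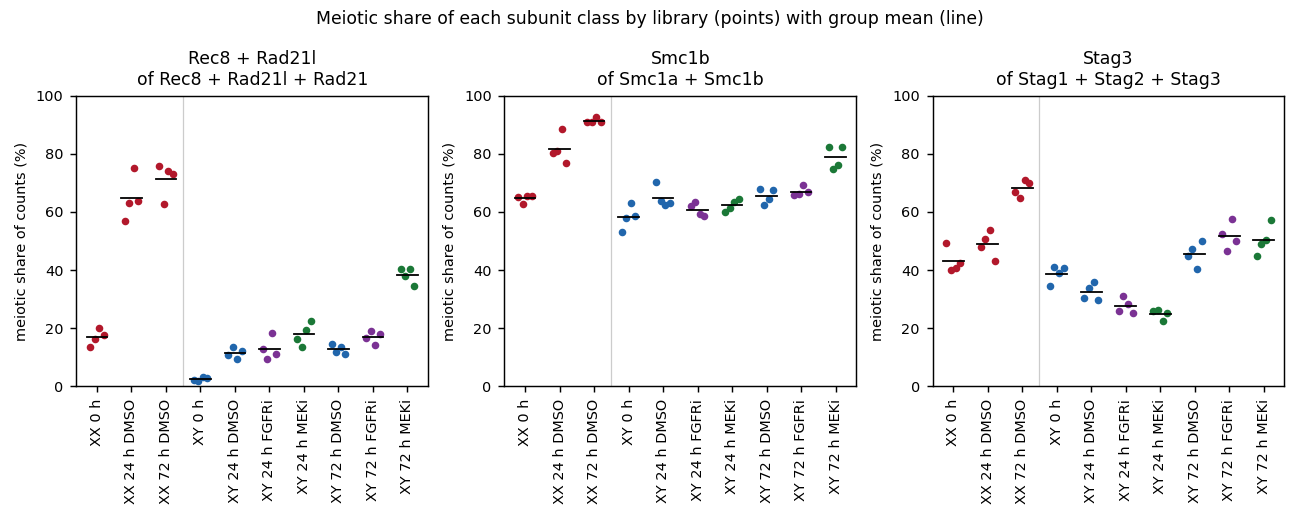
Percent of the counts of each subunit class (y axis, 0 to 100) that came from its meiotic members, by group (x axis), with 1 point per library and a line at the mean of 4 libraries; the classes are the kleisins, the SMC1 proteins and the STAG proteins. Among XY groups the kleisin share was highest with MEKi at 72 h, at 38.3%.

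In XY germ cells in DMSO the 24 h libraries read 31.6, 35.4, 36.4 and 41.9 CPM for Rec8, all above the XY 0 h libraries (2.03 ± 0.27, FDR = 0.000147), and Rec8 was the only subunit of 9 called, where 2.94% of all genes were, 1.61% higher and 1.33% lower. The groups did not overlap for 4 subunits, against 20.9% of all genes. At 72 h the libraries read 38.9, 34.7, 35.3 and 38.5 CPM, within the range of 24 h (-0.02 ± 0.20, FDR = 1). Subtraction of shared index counts removed 71 of the 390 Rec8 counts of the XY 24 h DMSO libraries, whose partners were the 72 h MEKi libraries, and the call remained.

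Rad21l was close to absent from XY cells before 72 h. The 4 libraries of a group held 3 counts in all at 0 h, 6 at 24 h in DMSO, 1 with 24 h FGFRi and 2 with 24 h MEKi. At 72 h in DMSO they held 35, 22, 25 and 8 counts (15.7, 9.20, 16.6 and 5.31 CPM), all above any earlier XY library. The level at 72 h was 38.5 times that at 0 h, with an interval of 12.8 to 190 that covers counting error only (exact binomial, 95%), and the rise was called from 0 h (4.50 ± 0.66 in the fit, FDR = 9.41e-07) and from 24 h (3.91 ± 0.64, FDR = 1.85e-05). Subtraction of shared index counts left 1 count at 0 h and 3 at 24 h, and moved these differences to 5.31 ± 0.74 and 4.62 ± 0.76. From 0 h to 72 h 2 of 9 subunits were called, Rec8 (2.00 ± 0.27, FDR = 1.28e-05) and Rad21l, both higher, where 20.2% of all genes were called higher and 35.5% in all, and 5 did not overlap, against 55.6% of all genes. From 24 h to 72 h Rad21l was the only one, where 27.3% of all genes were called, and 5 did not overlap, against 48.5%. Smc1b read 604 ± 37.1 CPM and Stag3 228 ± 24.2 CPM at 72 h, and neither was called against 0 h (FDR = 1 for each). The summed endothelial markers were at 104 ± 7.28 CPM at 0 h and 18.1 ± 3.10 CPM at 72 h and the blood markers at 161 ± 134 and 43.8 ± 21.7 CPM. Of 4 blood markers 1 was called lower, and of 2 endothelial markers 1 was called higher and 1 lower. Of 5 germ cell markers 2 were called higher. The part of these markers was not tested.

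The sexes were compared within a pool at each time. At 24 h in DMSO all 4 meiotic subunits were lower in XY cells, where 5.99% of all genes were called lower and 9.99% in all, and no other subunit was called. The groups did not overlap for 5 subunits, against 33.2% of all genes. The differences were -3.12 ± 0.16 for Rec8 (FDR = 4.29e-18), -1.13 ± 0.12 for Smc1b (FDR = 0.000776) and -1.06 ± 0.11 for Stag3 (FDR = 0.00106), and Rad21l had 6 counts in XY against 79 in XX libraries (-3.30 ± 0.66, FDR = 0.00145; -3.93 ± 0.79 after subtraction of shared index counts). With only the compared groups in the fit Rad21l did not pass the filter on low counts, and 3 subunits were called. The mean of Rad21 was 287 ± 53.2 CPM for XY and 188 ± 48.1 for XX libraries (0.61 ± 0.14, FDR = 1). Of the markers at 24 h, 1 of 8 gonadal somatic ones was called higher in XY cells (median 0.83), and of 5 germ cell ones 1 was called higher and 1 lower, and their part was not tested.

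At 72 h in DMSO 3 meiotic subunits were lower in XY cells, where 18.1% of all genes were called lower, and Rad21 was higher, where 22.8% were called higher, with 41% called in all. The groups did not overlap for 6 subunits, against 58.5% of all genes. Smc1b differed by -2.42 ± 0.12 (FDR = 1.11e-19), Rad21l by -2.58 ± 0.25 (FDR = 1.11e-09) and Stag3 by -1.33 ± 0.10 (FDR = 4.81e-09). The Rad21l call was lost with the replicate number as a block (-2.52 ± 1.00, FDR = 0.102). Rad21 read 323, 328, 330 and 346 CPM in XY against 55.7, 80.0, 44.2 and 41.4 CPM in XX cells, a difference of 2.60 ± 0.17 (FDR = 2.77e-15). Rec8, called lower in XY cells at both earlier times, was not called at 72 h (-0.81 ± 0.19, FDR = 0.24), although every XY library was below every XX library. It was called without XX 72 h DMSO replicate 8 (-1.10 ± 0.18, FDR = 0.00904) and by edgeR (-0.95, FDR = 0.0138), but not by DESeq2. Of the somatic markers tested at 72 h, 3 of 8 gonadal ones were called lower in XY cells (median -1.05) and 1 of 2 endothelial and 2 of 5 germ cell ones higher, and their part in these differences was not tested.

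The change in the sex difference from 0 h to 72 h was tested as a term of its own, and 4 of 9 subunits were called, where 28.9% of all genes were. The difference, XY minus XX, moved by 2.35 ± 0.32 for Rec8 (FDR = 7.69e-06), by -1.63 ± 0.17 for Smc1b (FDR = 9.40e-07), by -0.97 ± 0.14 for Stag3 (FDR = 0.0218) and by 2.59 ± 0.20 for Rad21 (FDR = 1.09e-11). The gap therefore narrowed for Rec8 and widened for Smc1b, Stag3 and Rad21. For Rad21l it moved by -0.75 ± 0.79 (FDR = 0.749). The Stag3 call was lost without XY 0 h replicate 6 (-0.90, FDR = 0.0711) or XY 72 h DMSO replicate 5 (-0.91, FDR = 0.0611). It was also lost with DESeq2 (-0.95, FDR = 0.11), without the filter on low counts (-0.98, FDR = 0.0593) and with the replicate number as a block (-0.84, FDR = 0.312).

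**Figure D4:**
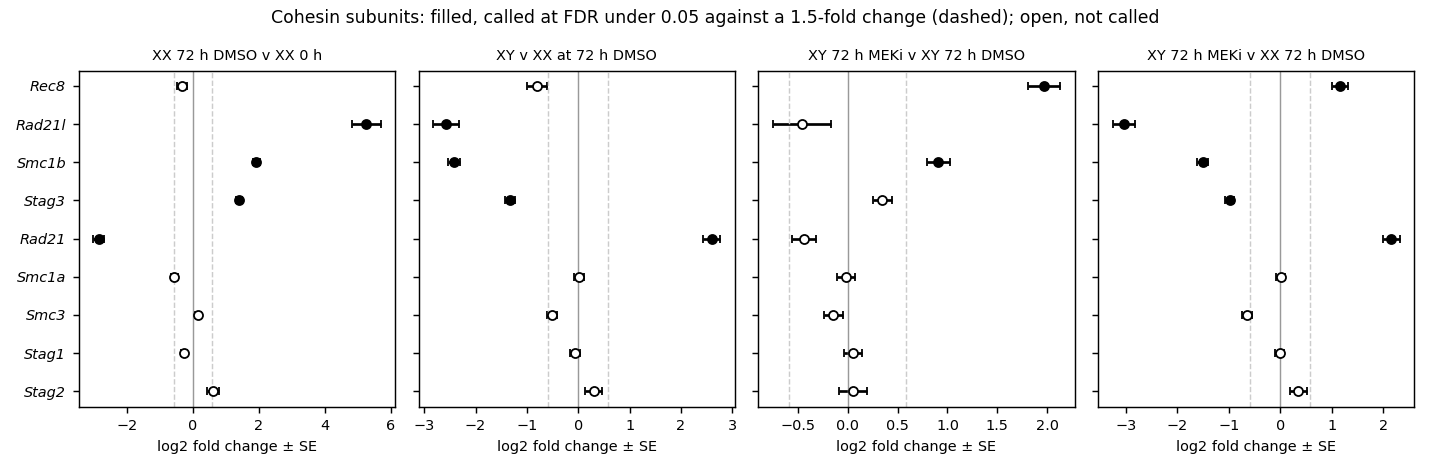
Log2 fold changes with SE bars (x axis) of the 9 subunits (y axis) in 4 comparisons: XX at 72 h against 0 h, XY against XX at 72 h in DMSO, and MEKi at 72 h against XY and against XX cells in DMSO; filled points were called against a 1.5-fold change (dashed lines) and open points were not. With MEKi at 72 h Rec8 and Smc1b were called higher than in DMSO, and Rec8 was the only meiotic subunit called above the XX 72 h level.

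Smc1a, Smc3, Stag1 and Stag2, which build the rings of dividing cells, were not called in any of the 19 comparisons by limma treat. The ordinary moderated test with an observed fold over 1.5 called Stag2 in XX cells at 24 h (0.67, FDR = 0.00216) and at 72 h (0.60, FDR = 0.00274) against 0 h and with 72 h MEKi against XY 0 h (0.59, FDR = 0.000611), and Smc3 with MEKi against XX cells at 72 h (-0.65, FDR = 4.67e-08). Over the 40 libraries Smc1a ranged from 252 to 533 CPM, Smc3 from 592 to 1263 CPM, Stag1 from 167 to 321 CPM and Stag2 from 30.1 to 97.7 CPM. In XX cells from 0 h to 72 h Smc1a differed by -0.57 on the log2 scale (interval -0.75 to -0.38) and Stag2 by 0.60 (0.25 to 0.95), intervals that reach past a 1.5-fold change. Between XY and XX cells at 72 h Smc3 differed by -0.51 (-0.70 to -0.32) while X-linked Smc1a differed by 0.02 (-0.18 to 0.21) and X-linked Stag2 by 0.30 (-0.03 to 0.63). The median of X-linked genes there was -0.11 over 635 genes against 0.10 over all genes. The annotated genes Gm37204, Gm38297 and Gm3081 lie within Stag1 on its strand and held 1269, 88 and 255 counts in the 40 libraries, and how the counting divided reads between them and Stag1 is not given in the sources used here.

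The inhibitors were compared with DMSO in XY cells. At 24 h no subunit was called with FGFRi, where 0.262% of all genes were, or with MEKi, where 0.164% were, 0.0525% higher (limma treat). At an unadjusted p under 0.05 there were 0 subunits with FGFRi and 1 with MEKi, and edgeR and DESeq2 called 0 with either. The 1 subunit was Rec8, at 66.9, 67.5, 63.0 and 95.8 CPM with MEKi, all above the DMSO libraries (0.95 ± 0.18, FDR = 1), and Smc1a, Stag1 and Stag2 also lay wholly above DMSO without being called. These 4 of 9 subunits had groups that did not overlap, against 10.5% of all genes. The ordinary moderated test with an observed fold over 1.5 called Rec8 with MEKi (FDR = 0.000319), where it called 556 of 15252 genes. Smc1a was at 459 ± 25.0 against 386 ± 10.4 CPM in DMSO, Stag1 at 308 ± 9.03 against 252 ± 30.4 and Stag2 at 80.3 ± 11.9 against 62.0 ± 7.21. With FGFRi, Rec8 read 39.9, 24.4, 48.8 and 35.9 CPM, on either side of DMSO (-0.04 ± 0.21, interval -0.45 to 0.38), with treatment and pool confounded. Stag3 was the 1 subunit whose FGFRi libraries did not overlap with DMSO, at 108, 125, 129 and 113 against 131, 141, 185 and 148 CPM (-0.32 ± 0.12, FDR = 1), where 10.7% of all genes did not overlap. Blood markers were higher in the 24 h MEKi libraries, at 271 ± 127 CPM summed over 5 genes against 79.8 ± 43.7 CPM in DMSO, and their part was not tested.

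At 72 h no subunit was called with FGFRi, where 0.00656% of all genes were (limma treat). At an unadjusted p under 0.05 there were 0, and edgeR and DESeq2 also called 0. The ordinary moderated test with an observed fold over 1.5 called Rec8 (0.67, FDR = 0.0363), where it called 86 of 15252 genes. Rec8 read 59.4, 62.1, 58.4 and 53.9 CPM with FGFRi, all above the 4 DMSO libraries (0.67 ± 0.18, FDR = 1), where 6.71% of all genes had non-overlapping groups. These FGFRi libraries shared indexes with the XX 24 h DMSO libraries, and carry-over from those was not estimated. Smc1b was at 589 ± 71.2 CPM (-0.08 ± 0.12) and Stag3 at 266 ± 29.1 CPM (0.21 ± 0.10).

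With MEKi at 72 h Rec8 read 140, 145, 161 and 123 CPM, all above every DMSO and FGFRi library (1.97 ± 0.16 relative to DMSO, FDR = 3.47e-09; 1.29 ± 0.13 relative to FGFRi, FDR = 3.03e-05). Together with Smc1b it made 2 of 9 subunits called higher than in DMSO, where 4.01% of all genes were called higher and 9.12% in all, and 2 of 9 called higher than with FGFRi, where 5.71% were. Smc1b read 1562, 891, 990 and 1450 CPM with MEKi against 624, 568, 578 and 646 CPM in DMSO (0.91 ± 0.12, FDR = 0.042). The 2 lower MEKi libraries had total counts of 4784965 and 4453783 and the 2 higher ones 1940297 and 2385976, and the part of depth was not tested. The Smc1b call against DMSO was lost without any 1 of 5 libraries, MEKi replicate 2 (0.79, FDR = 0.234) or 5 (0.78, FDR = 0.284) and DMSO replicate 2 (0.93, FDR = 0.0691), 4 (0.88, FDR = 0.111) or 5 (0.89, FDR = 0.0982). It was also lost with DESeq2 (0.96, FDR = 0.11), with DESeq2 size factors (0.85, FDR = 0.124) and without the filter on low counts (0.83, FDR = 0.784). That against FGFRi (0.99 ± 0.11, FDR = 0.00551) was lost without FGFRi replicate 2 (0.86, FDR = 0.11) or MEKi replicate 5 (0.86, FDR = 0.0705), and without the filter on low counts (0.83, FDR = 0.472).

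Of the marker genes, 1 of 2 endothelial and 1 of 5 germ cell markers were called lower with MEKi than in DMSO and than with FGFRi, and 1 of 8 gonadal somatic markers was called higher than with FGFRi. Their part was not tested. Rad21l and Stag3 were not called with MEKi. Rad21l read 5.96, 7.52, 9.91 and 6.66 CPM, in the lower part of the DMSO range (-0.46 ± 0.29, interval -1.03 to 0.12, FDR = 1), and Stag3 247, 261, 292 and 352 CPM (0.35 ± 0.10, FDR = 1). Rad21 read 215, 249.4, 254 and 244 CPM, below every DMSO library but not called (-0.44 ± 0.12, FDR = 1), as 38.3% of all genes had non-overlapping groups. The meiotic share of kleisin counts was 38.3 ± 2.65% with MEKi against 12.8 ± 1.51% in DMSO and 16.9 ± 2.00% with FGFRi, nearly all of it Rec8 (36.4 ± 2.57%). The meiotic share of SMC1 counts was 78.8 ± 3.91% against 65.5 ± 2.53% in DMSO, and that of STAG counts 50.4 ± 5.09% against 45.6 ± 4.09%. The difference between the MEKi effects at 72 h and 24 h was called for 0 of 9 subunits by limma treat, edgeR and DESeq2, where 1.89% of all genes were called by limma treat, and 1 subunit had an unadjusted p under 0.05 (Rec8, 1.02 ± 0.24, FDR = 0.452).

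Set against XX cells, MEKi-treated XY cells stood apart subunit by subunit. At 24 h all 4 meiotic subunits were lower than in XX DMSO cells, where 5.52% of all genes were called lower. Rec8 was at -2.18 ± 0.14 (FDR = 6.00e-13) and Rad21l at 2 counts against 79 (FDR = 7.39e-05). With only the compared groups in the fit Rad21l did not pass the filter on low counts, and 3 subunits were called. In the same comparison all 4 blood markers tested were called higher with MEKi (median 2.92), with a sum of 271 ± 127 against 32.8 ± 8.72 CPM in XX cells over 5 genes, and 1 of 8 gonadal somatic markers was called higher. Their part was not tested. At 72 h Rec8 was higher with MEKi than in XX cells (1.16 ± 0.15, FDR = 0.00115), where 17.2% of all genes were called higher, and the lowest MEKi library, at 123 CPM, was above the highest XX library, at 98.0 CPM. The Rec8 call was lost without XX 72 h DMSO replicate 8 (0.87 ± 0.15, FDR = 0.0982) and with DESeq2 (0.92 ± 0.16, FDR = 0.124). Smc1b (-1.51 ± 0.11, FDR = 2.37e-10), Stag3 (-0.99 ± 0.09, FDR = 0.000279) and Rad21l (-3.04 ± 0.22, FDR = 7.16e-14) were lower, where 12.8% of all genes were called lower, and Rad21 was higher (2.16 ± 0.17, FDR = 1.49e-11). In this comparison 2 of 8 gonadal somatic markers were called lower and 2 of 5 germ cell markers higher with MEKi, and their part was not tested. Rec8 at 142 CPM with 72 h MEKi lay between the XX levels of 0 h and 24 h, at 81.0 and 335 CPM. Against XY cells at 0 h Rec8 (3.97 ± 0.25, FDR = 8.18e-17), Rad21l (121 counts against 3, 4.04 ± 0.64, FDR = 1.35e-05; 4.85 ± 0.73 after subtraction) and Smc1b (1.20 ± 0.12, FDR = 2.43e-05) were called higher, where 15.1% of all genes were. All 4 blood markers tested were called lower in that comparison (median -2.49), as was 1 of 2 endothelial markers, and 1 of 8 gonadal somatic markers was called higher, and their part was not tested.

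Ordered by mean level, Rec8 ran from XX 24 h, XY 72 h MEKi and XX 0 h down to XY 0 h, and each of the first 2 groups was separated from the next. The 4 groups from XX 0 h (81.0 CPM) through XY 24 h MEKi (73.3) and XX 72 h (70.8) to XY 72 h FGFRi (58.4) overlapped in turn. For Rad21l only XX 72 h stood apart at the top, and the XY 72 h groups overlapped with XX 24 h. For Smc1b and Stag3 XX 72 h stood apart, and for Smc1b all groups from XX 24 h to XY 0 h overlapped with their neighbours. For Rad21 XX 72 h stood apart at the bottom.

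Likeness was measured as Pearson's r between group means of log2 CPM over the 10 groups, as a description without a test. The genes most like Smc1b were Dmc1 (r = 0.994), the meiotic recombinase, Fgfr1op2 (0.987), Acer3 (0.985), Atp2b1 (0.984) and Brme1 (0.984), which acts in meiotic recombination. Dmc1 was at 210 CPM in XX cells at 72 h, 7.06 CPM in XY DMSO cells and 28.3 CPM with MEKi. Those most like Rad21l were Zhx3 (0.995), Hmox2 (0.994), Rexo5 (0.994), Sgsm3 (0.993) and Kdm2a (0.991), and those most like Stag3 were Ccdc134 (0.987), Gramd2a (0.986), Adarb1 (0.986), Eaf2 (0.985) and Ube2t (0.984). The genes most like Rec8 were less so, with Rflnb (0.940), Macrod1 (0.914), Pxmp4 (0.907), Idua (0.903) and Mxd4 (0.902). In XY cells at 0 h Rflnb, Macrod1 and Idua were at low levels, 2.16 ± 2.29, 0.507 ± 0.448 and 0.459 ± 0.622 CPM. Pxmp4 and Mxd4 were at 15.5 ± 2.84 and 16.7 ± 4.99 CPM there. Of the genes like Stag3, Gramd2a was at 1.49 ± 1.43 CPM with MEKi at 24 h. Among the subunits, Rad21l was closest to Stag3 (0.946), Smc1b ran against Rad21 (-0.903), and Rec8 had no subunit above 0.606, its value with Smc1b.

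Stra8 and Meiosin, the pair of transcription factors that start meiosis, were set beside the subunits. Stra8 was at 92.7 ± 16.1 CPM in XX cells at 0 h, 972 CPM at 24 h and 696 ± 143 CPM at 72 h, and at 102 ± 28.5 CPM in XY DMSO cells and 948 ± 186 CPM with MEKi at 72 h. Stra8 was called higher with MEKi at 24 h (2.19) and at 72 h (3.18), and its level with 72 h MEKi was not called against XX cells (0.37). Meiosin was at 32.0 ± 11.5 CPM in XX cells at 72 h, 2.98 ± 1.31 CPM in XY DMSO cells and 9.20 ± 2.52 CPM with MEKi, called lower than in XX cells (-1.86) and not called against DMSO (1.61).

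The 16 cohesin regulators were all tested. In XX cells from 0 h to 72 h 4 were called higher and 5 lower, where 18.8% of all genes were called higher and 18.4% lower, with a median of -0.48 against -0.01 over all genes. The 4 were Nipbl (1.37) and Mau2 (1.53), which together load cohesin, Esco2 (1.11), which acetylates SMC3 during replication, and the kinase Bub1 (1.26). Nipbl rose from 322 ± 3.26 to 845 ± 58.6 CPM. Lower were the cohesin protectors Cdca5 (-2.54) and Sgo2a (-1.07), the mitotic kinase Plk1 (-2.03), the separase inhibitor Pttg1 (-2.13) and Pds5a (-0.94). In XY cells from 0 h to 72 h 1 was called higher, Hdac8 (2.03), which deacetylates SMC3, and 8 lower, where 20.2% and 15.2% of all genes were, with a median of -0.85 against 0.06 over all genes. The lower ones included Plk1 (-2.91), Cdca5 (-2.32), Sgo2a (-2.17) and Ctcf (-1.21). Between XY and XX cells at 72 h 5 were called lower and 2 higher, where 18.1% and 22.8% of all genes were and 41% in all, with a median of -0.70 against 0.10 over all genes, and Nipbl (-1.61), Mau2 (-1.20), Esco2 (-2.05) and Bub1 (-1.38) were among the lower ones. With MEKi at 72 h 2 were called, Plk1 (2.01 ± 0.24, FDR = 1.10e-05) and Cdca5 (1.14 ± 0.19, FDR = 0.0329), where 4.01% of all genes were called higher and 9.12% in all, with a median of 0.40 against 0.01 over all genes. Plk1 was at 43.1 ± 5.20 CPM with MEKi, 10.7 ± 3.30 CPM in DMSO and 77.2 ± 10.2 CPM in XY cells at 0 h. None of the 16 was called with either inhibitor at 24 h or with FGFRi at 72 h.

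**Figure D5:**
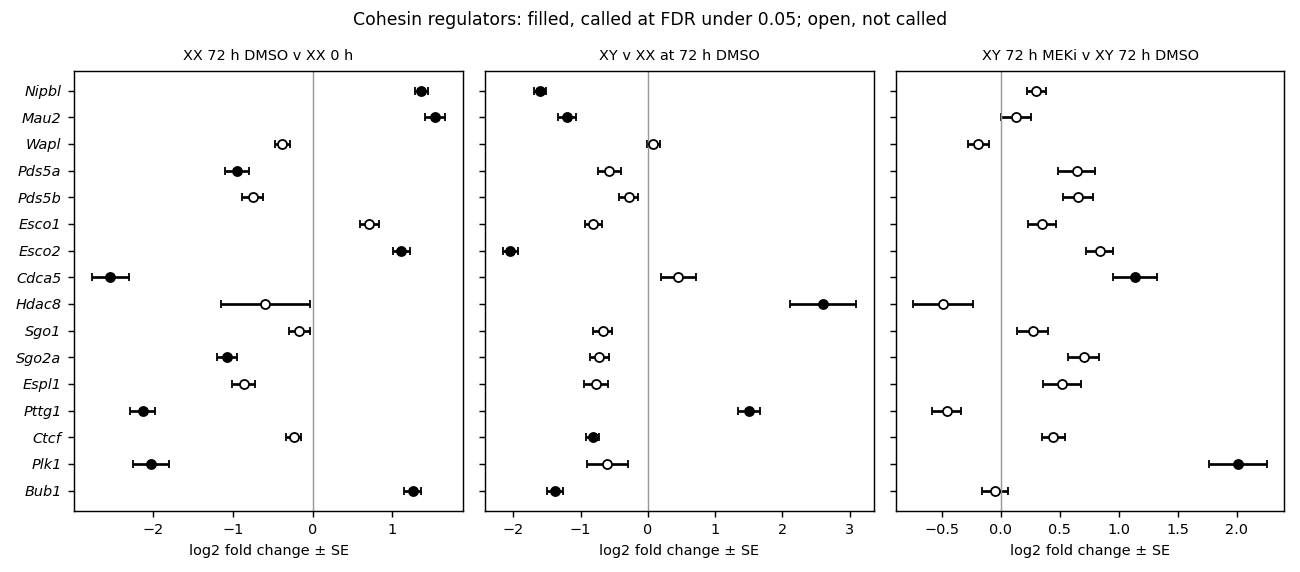
Log2 fold changes with SE bars (x axis) of the 16 cohesin regulators (y axis) in 3 comparisons: XX at 72 h against 0 h, XY against XX at 72 h in DMSO, and MEKi against DMSO in XY cells at 72 h; filled points were called and open points were not. Nipbl, Mau2, Esco2 and Bub1 were higher in XX cells at 72 h than at 0 h and lower in XY than in XX cells at 72 h, and Plk1 and Cdca5 were higher with MEKi.

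The 4 axis proteins that assemble on meiotic cohesin, Sycp2, Sycp3, Hormad1 and Hormad2, were all called higher in XX cells at 72 h than at 0 h (median 2.95), where 18.8% of all genes were called higher, and all lower in XY than in XX cells at 72 h (median -1.98), where 18.1% were called lower. Sycp3 went from 175 ± 24.1 to 1890 ± 233 CPM in XX cells and from 79.8 ± 7.57 to 506 ± 45.9 CPM in XY cells. With MEKi at 72 h Hormad2 was the only one of the 4 called (1.55), at 39.5 ± 6.95 CPM against 13.0 ± 2.00 CPM in DMSO, and Sycp3 was at 695 ± 175 CPM (0.38). Of the 10 subunits of other SMC complexes 1 was called higher and 3 lower in XX cells from 0 h to 72 h, a share near the 37.2% of all genes called. Between XY and XX cells at 72 h 5 were called lower and 1 higher (median -0.70 against 0.10 over all genes), where 18.1% and 22.8% of all genes were. With MEKi at 72 h 1 was called, Ncaph2 of condensin II (1.09), where 9.12% of all genes were, with a median of 0.42 against 0.01 over all genes.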

How the data were processed

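Germ cells were sorted by Oct4-eGFP and sequenced as 3′-end libraries with molecular identifiers (UMIs). The authors demultiplexed reads with scPipe (1 mismatch allowed), aligned them to GRCm39 with Rsubread, counted exonic reads by strand and collapsed UMIs; the values deposited are raw counts per gene and library. Tool versions are not given in the sources used here. Of 42422 rows, 40391 matched GENCODE identifiers, and the other 2031 held 1.053% of counts. Genes were filtered (filterByExpr), scaled by TMM, fitted with voom quality weights and 1 mean per group over the 40 libraries, and tested with treat against a 1.5-fold change (limma 3.58.1, FDR under 0.05), after the study's methods. Alternatives used edgeR 4.0.16 and DESeq2 1.42.0. Confidence intervals are 95%. The fit was tested on simulated data. Libraries come from separate pools of gonads. Named genes were the members, the fixed lists, Stra8 and Meiosin, and the 5 genes most like each meiotic subunit. The members and lists were chosen with earlier results of these data known.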

Additional observations from a re-analysis of the deposited data

Results flagged for a closer look

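The difference between XY and XX cells changed from 0 h to 72 h, by the test of that change, for Rec8 (2.35 on the log2 scale), Smc1b (-1.63), Stag3 (-0.97) and Rad21 (2.59). Among 90 sets of 4 libraries (9 subunits in 10 groups), 6 had a library far from the other 3 by Dixon's criterion, and chance gives about 5% of sets. These were Rec8 at 95.8 CPM in XY 24 h MEKi, Rad21l at 41.5 CPM in XX 72 h DMSO, Smc1b at 915 CPM in XY 24 h DMSO and Smc1a at 275 CPM in XX 72 h DMSO. Rad21l was also marked at 0.574 CPM (1 count) in XY 24 h FGFRi and at 1.06 CPM (2 counts) in XY 24 h MEKi, where the other libraries held 0 counts.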

How the results depend on the processing

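Of 44 calls of a subunit in a comparison, 30 held in all alternatives and leave-one-out fits that gave a value, and no call reversed. The number of subunits called moved by over 1.5 times as follows. With the ordinary moderated test and an observed fold over 1.5 it was 2 for XY against XX at 0 h (1 in the fit reported), 5 for XX 24 h against 0 h (2), 2 for XY 72 h against 24 h (1), 1 for MEKi at 24 h (0), 1 for FGFRi at 72 h (0), 6 for MEKi at 72 h against XY 0 h (3) and 3 for the difference between MEKi effects (0). Over all 15252 genes this test called 2249, 3008, 7298, 556, 86, 6932 and 2889 in the same order. The fit reported called 457, 493, 4164, 25, 1, 3647 and 288. Without a filter on low counts it was 1 for XX 24 h against 0 h, 1 for MEKi against DMSO at 72 h and 1 for MEKi against FGFRi. Subtracting shared index counts or using edgeR gave 4 for XX 24 h against 0 h, where these called 527 and 1101 of all genes. For MEKi against DMSO at 72 h (2) it was 1 with DESeq2 size factors and 1 with DESeq2. With the replicate number as a block it was 1 for XX 72 h against 24 h (5) and 3 for MEKi against XX at 72 h (5). The deviations of same-numbered libraries had r from -0.123 to 0.15, over 1 to 4 shared numbers per comparison. These 2 comparisons each shared only 1 number, 4. So few pairs cannot tell whether same-numbered libraries shared a culture run. Leaving out 1 library gave 1 to 2 for XX 24 h against 0 h, for MEKi against DMSO at 72 h and for MEKi against FGFRi. The Smc1b share of SMC1 counts in XX cells at 0 h was 62.9% after subtraction. Without the filter, the calls lost beside those given above were Rad21 in XX 24 h against 0 h (FDR = 0.0906), Smc1b in MEKi against XX at 24 h (FDR = 0.0551) and Smc1b in 72 h MEKi against XY 0 h (FDR = 0.0891). The causes were not tested. Size factors of DESeq2 moved the median of all genes by 0.10 to 0.12 (log2) in XX 72 h against 24 h, XY 72 h against 0 h and XY 72 h against 24 h. They moved the share of higher calls among all genes from 64.2% to 54.1% for the difference between MEKi effects. At this depth Rad21l was near its detection limit in XY cells before 72 h.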

Other observations

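Ribc2 begins 70 bases from Smc1b on the opposite strand of chromosome 15 and was chosen after its place had been seen. It was at 1.70 ± 0.753 CPM in XX cells at 0 h, 3.80 ± 3.16 at 24 h and 18.6 ± 2.17 at 72 h, and at 6.72 ± 1.49 CPM in XY DMSO cells and 6.75 ± 3.04 CPM with MEKi at 72 h. It was called higher in XX cells at 72 h than at 0 h (3.23 ± 0.45, FDR = 1.16e-06, limma treat) and lower in XY than in XX cells at 72 h (-1.49 ± 0.34, FDR = 0.0154), but not with MEKi at 72 h against DMSO (0.08 ± 0.35, FDR = 1), where Smc1b was called higher. In XY DMSO cells Ribc2 was called higher at 72 h than at 0 h (FDR = 2.47e-05), from 5 counts in 4 libraries, where Smc1b was not. The Smc1b call with MEKi was lost in 8 of 17 alternative fits, and the difference between Ribc2 and Smc1b was not tested.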
